A study of Mus musculus with 15 samples.

Results

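The genes described here encode the proteins of the mitochondrial ribosome, and they were chosen by name: all rows of the expression table whose symbol is Mrpl or Mrps followed by a number, with or without 1 closing letter. This rule found 78 genes among the 55335 listed, and all 78 had a mean of at least 1 FPKM (sequenced fragments scaled for transcript length and for library depth) over the 15 samples, so that all 78 were among the 11419 genes tested. The samples were tumor-associated macrophages (TAMs) sorted on CD11b and on the surface protein encoded by Adgre1 from orthotopic hepatocellular carcinoma (HCC) in C57BL/6 mice, in which the tumors were grown from Hepa1-6, a mouse hepatoma cell line carrying a luciferase reporter. The 3 groups held 5 samples each and differed in the HCC cells, not in a transgene of the macrophages: control HCC, HCC with miR-144 overexpression and HCC with miR-451a overexpression. The labels describe the cells themselves as untreated and give neither age nor sequencing batch, and they do not say that the 5 samples of a group came from separate mice, and a figure legend of the study gives fewer replicates for this assay than the samples analysed here, so that the p-values measure only the spread between these samples.

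Mitochondria carry their own ribosome, which is built from RNAs encoded by mitochondrial DNA and from proteins encoded in the nucleus, made in the cytosol and imported. It translates only the few mRNAs of the mitochondrial genome, whose products are core parts of the respiratory chain and of ATP synthase. Some of its proteins have counterparts in the bacterial ribosome and others are found only in mitochondria. In macrophages, mitochondrial respiration is known to change with the state of activation.

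The 78 genes lie on 17 chromosomes, and 18 of them (23.1%) start head to head with another protein-coding gene within 1000 bases, compared with 6.79% of 21951 protein-coding genes. Pairs of genes that overlap at their starts were not counted in either share. RefSeq promoter windows (GRCm38.p6, from 250 bases before to 50 bases after the start) were found for 69 of the 78. A set of 3 short strings was searched on both strands: CCGGAAG, bound by GABPA and other ETS factors, GCATGCGC, bound by NRF1, and AAGATGG, bound by YY1, all known regulators of nuclear genes for mitochondrial proteins. The first and the last can share the letters AAG. The ETS string was in the windows of 26 of the 69 genes (37.7%), against 13.4% of 16522 protein-coding genes with a window and 9.93% of all 27025 genes. The NRF1 string was in 8 (11.6%, against 4.11% and 3.05%) and the YY1 string in 13 (18.8%, against 7.26% and 7.28%). The windows of 4 genes are shown because these genes were among those with the largest differences described below and because they differ in these strings, which are in capitals.

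Mrpl52 (chr14:54426659-54426958, plus strand), the gene with the largest rise, holds the ETS string at 2 places and the YY1 string at 1.
Mrpl52: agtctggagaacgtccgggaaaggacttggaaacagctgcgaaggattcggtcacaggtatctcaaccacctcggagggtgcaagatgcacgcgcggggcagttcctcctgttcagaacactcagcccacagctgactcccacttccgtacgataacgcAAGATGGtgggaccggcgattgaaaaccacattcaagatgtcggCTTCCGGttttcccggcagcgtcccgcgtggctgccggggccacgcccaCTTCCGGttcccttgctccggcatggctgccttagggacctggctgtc
Mrpl33 (chr5:31613701-31614000, plus strand), which also rose, holds the NRF1 string just before the ETS string.
Mrpl33: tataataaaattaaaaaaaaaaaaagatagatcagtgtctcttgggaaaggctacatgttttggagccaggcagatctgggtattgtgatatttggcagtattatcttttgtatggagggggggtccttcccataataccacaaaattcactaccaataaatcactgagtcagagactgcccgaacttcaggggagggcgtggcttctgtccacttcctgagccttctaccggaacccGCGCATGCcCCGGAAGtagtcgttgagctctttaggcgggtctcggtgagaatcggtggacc
Mrps18b (chr17:35916391-35916690, minus strand), which fell, holds the NRF1 string at 2 places and the ETS string at 1.
Mrps18b: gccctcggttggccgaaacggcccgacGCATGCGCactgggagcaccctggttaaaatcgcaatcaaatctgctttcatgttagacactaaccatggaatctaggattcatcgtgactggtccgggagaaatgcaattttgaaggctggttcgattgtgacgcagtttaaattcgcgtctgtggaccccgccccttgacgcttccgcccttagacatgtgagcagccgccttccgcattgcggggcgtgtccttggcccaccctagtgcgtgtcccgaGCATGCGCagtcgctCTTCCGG
Mrps6 (chr16:92058086-92058385, plus strand), with the largest mean fall, holds none of the 3 strings in this window.
Mrps6: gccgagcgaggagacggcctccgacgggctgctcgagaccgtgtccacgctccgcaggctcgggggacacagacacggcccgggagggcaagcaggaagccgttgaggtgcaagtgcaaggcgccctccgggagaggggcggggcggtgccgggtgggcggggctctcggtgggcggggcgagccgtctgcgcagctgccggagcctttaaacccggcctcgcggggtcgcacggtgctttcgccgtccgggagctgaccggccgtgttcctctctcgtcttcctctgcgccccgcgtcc
Of the members that fell in both comparisons with control, 8 of the 16 with a window held the ETS string. The corresponding counts were 3 of 9 for those that rose in both and 15 of 44 for the others.

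The levels of the 78 genes spanned a 27.9-fold range of mean FPKM over all samples, from 1.30 for Mrps35 to 36.4 for Mrps21, with a median of 7.13. Across these genes the level fell with the length of the longest annotated transcript (Spearman's rho = -0.741, n = 78 genes, which are not independent replicates and share the length used for FPKM). The large-subunit genes summed to 477 ± 9.53 FPKM in control TAMs, 462 ± 7.27 in miR-144 TAMs and 466 ± 2.58 in miR-451a TAMs (mean ± SD, n = 5 each). The small-subunit genes summed to 237 ± 9.83, 209 ± 17.5 and 196 ± 10.2 FPKM in the same order. Without Mrps6 and Mrps21 the small-subunit sums were 172 ± 3.46, 157 ± 6.85 and 156 ± 3.84 FPKM. The FPKM total of every control sample was above that of every sample of the miRNA groups. As a share of each sample's total, the large subunit came to 0.157 ± 0.0026% in control, 0.160 ± 0.0018% in miR-144 and 0.163 ± 0.0022% in miR-451a TAMs, so that control had the highest sum but the lowest share, with ranges of control and each miRNA group that overlapped. The small subunit came to 0.0782 ± 0.0036%, 0.0722 ± 0.0053% and 0.0684 ± 0.0037% and kept its order. Its ranges in control and each miRNA group overlapped too. As summed FPKM, miR-144 replicate 1, at 238, lay within the control range of 224 to 251. Each subunit's sum is a description and was not tested.

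**Figure D1:**
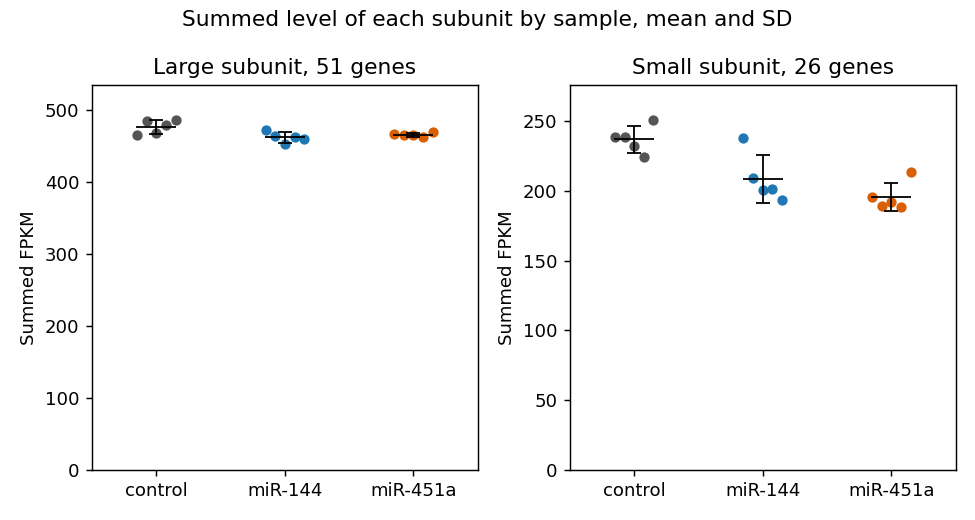
Summed FPKM of the 51 large-subunit genes (left) and the 26 small-subunit genes (right) in each of the 5 samples of each group, with the mean and SD in black. The small-subunit sum averaged 237 FPKM in control, 209 in miR-144 and 196 in miR-451a TAMs, while the large-subunit means lay between 462 and 477, highest in control, which was lowest as a share of the FPKM total.

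When TAMs from miR-144 tumors were compared with control TAMs, 29 of the 78 genes had an adjusted p under 0.05 (limma on log2(FPKM + 1), Benjamini-Hochberg over all 11419 genes), which is 37.2% against 67.2% of all genes tested. Of these, 10 were higher (47.1% of all genes were) and 19 were lower (20.1% of all genes were). In TAMs from miR-451a tumors, 34 of the 78 differed from control, which is 43.6% against 68.3% of all genes, with 12 higher (48.1% of all genes) and 22 lower (20.3% of all genes). The differences were small: 64 of the 78 genes were within 0.25 of 0 on the log2 scale for miR-144 (82.1%, against 50.2% of all genes) and 63 for miR-451a (80.8%, against 47.8%). The median log2 fold change of the 78 genes was -0.04 for miR-144 and -0.06 for miR-451a, while the median over all genes tested was 0.13 and 0.14. All 5 miR-144 samples lay above all controls in 8 members (37.9% of all genes) and below them in 12 (16% of all genes), and for miR-451a the counts were 5 (38.8% of all genes) and 12 (16.4% of all genes). Both comparisons used the same 5 control samples.

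The number called and its direction depended on how the samples were put on one scale. With the median of all genes set equal in every sample, falls outnumbered rises, by 44 to 3 for miR-144 and by 49 to 4 for miR-451a. The share called then came to 60.3% against 61.5% of all genes for miR-144 and 67.9% against 63.2% for miR-451a. With TPM, in which every sample has the same total, the rises outnumbered the falls, by 15 to 11 in the first comparison and by 20 to 12 in the other. Among all genes the shares higher and lower were then 53.7% and 16.4% for miR-144 and 55.6% and 16.3% for miR-451a. With median centring these shares were 30.8% and 30.7% for miR-144 and 31.3% and 31.8% for miR-451a. Relative to the median of all genes tested, the median of the members was lower under all 6 scalings, from -0.15 to -0.19 for miR-144 and from -0.19 to -0.22 for miR-451a. Median centring cannot change this difference, since it shifts all genes of a sample alike. Equal totals shift most genes nearly alike, so the likeness of these values is no separate support. Under all 6 scalings, 3 genes stayed higher in both comparisons (Mrpl24, Mrpl33 and Mrpl52) and 10 stayed lower in both (Mrps6, Mrps28, Mrps36, Mrpl41, Mrps18b, Mrpl12, Mrpl27, Mrpl36, Mrpl51 and Mrpl18), which is 3.85% and 12.8% against 26.8% and 14.7% of all genes tested. For 45 of the 78 genes the sign changed with the scaling in at least 1 of these comparisons (57.7%, against 31% of all genes tested). More of the members than of all genes lay near 0, where a small shift turns the sign, so this share adds no separate result.

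**Figure D2:**
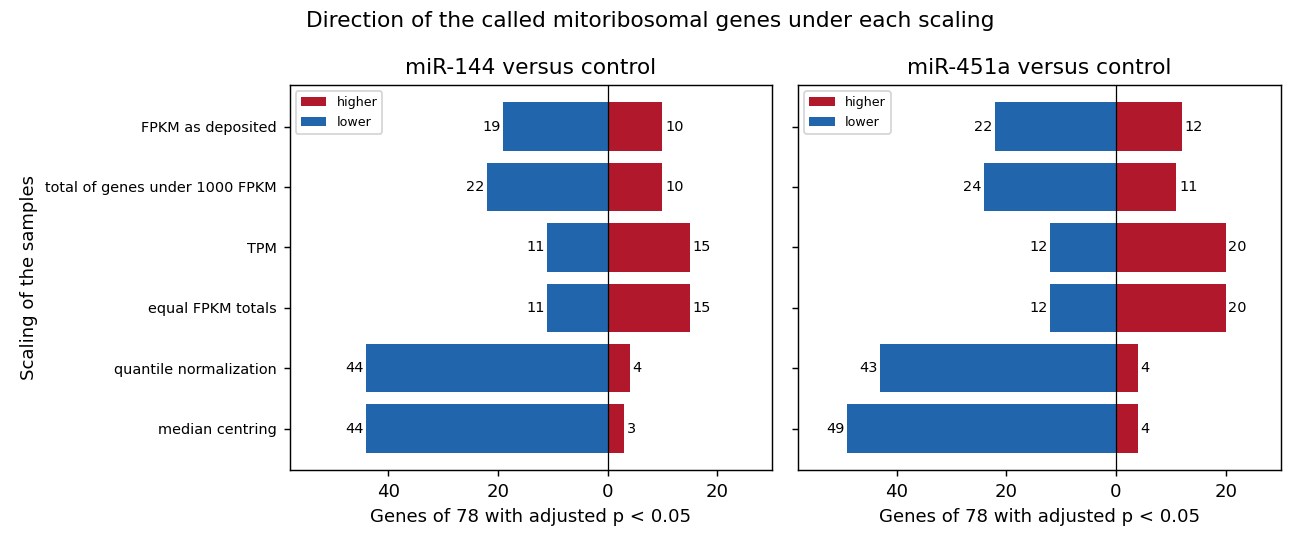
Number of the 78 genes with an adjusted p under 0.05 that were higher (red, to the right) or lower (blue, to the left) than control under each of 6 scalings, for miR-144 (left panel) and miR-451a (right panel). The FPKM as deposited gave 19 lower and 10 higher for miR-144, median centring 44 and 3, and TPM 11 and 15.

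By role, among the 26 genes of the small subunit, 1 was higher and 6 were lower in both comparisons with control. Among the 51 genes of the large subunit, 8 were higher and 11 lower in both. Of all genes tested, 44.5% were higher and 18.3% lower in both, and no difference between the subunits was tested. In the large subunit, the 30 genes with a bacterial counterpart had 5 higher and 8 lower in both, and the 21 without one had 3 higher and 3 lower. In the small subunit, Mrps9 was the 1 gene that rose in both, and it has a bacterial counterpart. Over all 78 genes, 9 were higher in both comparisons, 18 were lower in both, 9 were called in 1 of them and 42 in neither.

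**Figure D3:**
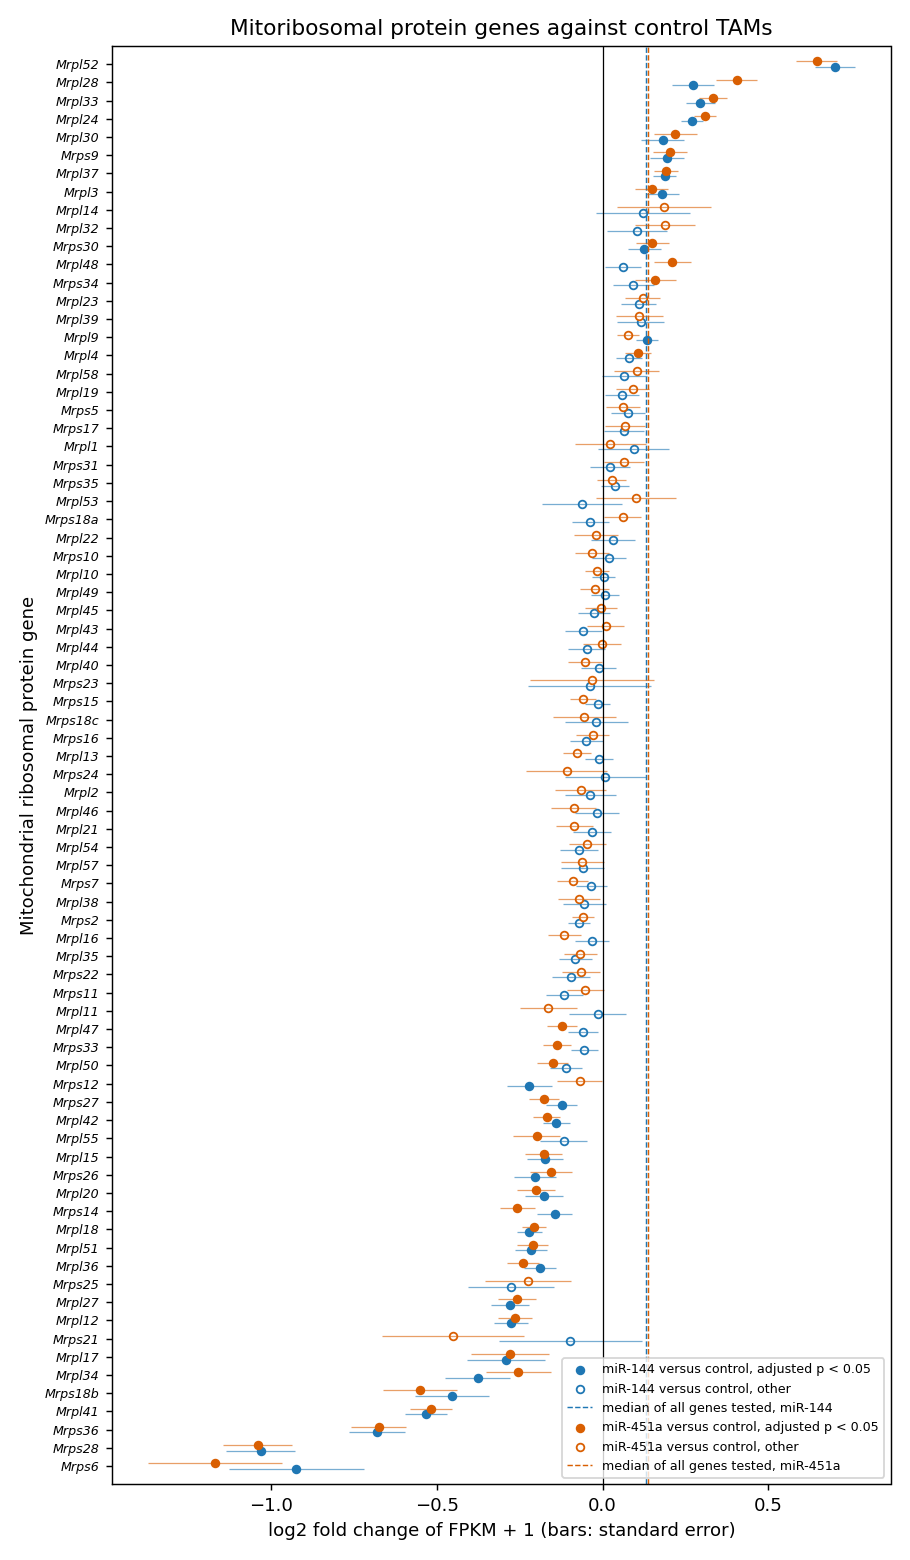
Log2 fold change of FPKM + 1 against control for each of the 78 genes, ordered by the mean of both comparisons, for miR-144 (blue) and miR-451a (orange), with the standard error as a bar. Filled points had an adjusted p under 0.05, open points did not, and the dashed lines mark the median over all genes tested, 0.13 and 0.14.

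The largest falls were in small-subunit genes. Mrps28 (ENSMUSG00000040269), a small-subunit protein counted here among those with a bacterial counterpart, was at 9.96, 11.1, 9.48, 10.6 and 11.6 FPKM in the control samples. It was at 5.19, 3.90, 3.60, 5.78 and 5.002 FPKM in the miR-144 samples and at 5.14, 4.24, 3.74, 5.15 and 4.89 in the miR-451a samples. Every sample of both miRNA groups lay below every control sample. The log2 fold change was -1.03 ± 0.10 (SE) for miR-144 (adjusted p = 4.5e-07, limma) and -1.04 ± 0.10 for miR-451a (adjusted p = 3.9e-07, limma).

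Mrps6 (ENSMUSG00000039680), a small-subunit protein with a bacterial counterpart, was at 23.6, 25.4, 22.9, 20.3 and 29.3 FPKM in the control samples. It was at 15.8, 15.3, 9.09, 7.97 and 15.6 in the miR-144 samples and at 12.2, 11.2, 7.65, 7.41 and 13.8 in the miR-451a samples. The groups did not overlap with control, but both miRNA groups held 2 samples well below the other 3. These were replicates 3 and 4 in each, and the same numbers were the lowest in control. The log2 fold change was -0.92 ± 0.20 for miR-144 (adjusted p = 9.2e-04, limma) and -1.17 ± 0.20 for miR-451a (adjusted p = 1.1e-04, limma). Of its exon bases, 19.9% overlap Gm49711 on the same strand.

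Mrps36 (ENSMUSG00000061474), which despite its name is known as a subunit of the 2-oxoglutarate dehydrogenase complex and lies outside the core ribosome, averaged 11.9 ± 1.39 FPKM (SD, n = 5) in control, 7.04 ± 0.797 in miR-144 and 7.05 ± 0.70 in miR-451a TAMs. Its log2 fold change was -0.68 ± 0.08 for miR-144 and -0.67 ± 0.08 for miR-451a (adjusted p = 4.1e-06 for both, limma). Its longest transcript shares 36.2% of its sequence, in stretches of 50 bases, with other genes, mostly the pseudogene Mrps36-ps1. Reads of Mrps36 may thus be split between them.

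Mrpl41 (ENSMUSG00000036850), a large-subunit protein without a bacterial counterpart, was at 17.2, 18.9, 19.2, 19.3 and 18.2 FPKM in the control samples. It was at 13.1, 12.7, 13.5, 11.6 and 11.7 in the miR-144 samples and at 13.1, 10.5, 13.8, 13.3 and 12.6 in the miR-451a samples. All 10 samples of the miRNA groups were below the lowest control. The log2 fold change was -0.53 ± 0.06 for miR-144 (adjusted p = 2.6e-06, limma) and -0.52 ± 0.06 for miR-451a (adjusted p = 3.4e-06, limma).

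Bacteria have 1 protein of the Mrps18 type, and mammals have 3. Mrps18b, a small-subunit protein, averaged 11.1 ± 0.51 FPKM in control, 7.93 ± 1.51 in miR-144 and 7.31 ± 1.101 in miR-451a TAMs. Its log2 fold change was -0.45 ± 0.11 for miR-144 (adjusted p = 2.2e-03, limma) and -0.55 ± 0.11 for miR-451a (adjusted p = 4.7e-04, limma), but 63.7% of its transcript sequence is shared with other genes, mostly Gm16279 on the opposite strand, and their reads cannot be told apart without strand. Mrps18a, which sits in the large subunit, averaged 6.79, 6.60 and 7.12 FPKM in control, miR-144 and miR-451a TAMs (adjusted p = 0.57 and 0.35, limma). Mrps18c averaged 11.9, 11.7 and 11.3 FPKM (adjusted p = 0.87 and 0.62, limma). Whether the fold change of Mrps18b differed from those of its paralogues was not tested.

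The largest rise was in Mrpl52 (ENSMUSG00000010406), a large-subunit protein without a bacterial counterpart. It was at 7.69, 7.21, 7.87, 8.12 and 6.75 FPKM in the control samples. It was at 14.1, 11.8, 13.1, 13.3 and 11.9 in the miR-144 samples and at 11.8, 11.6, 12.8, 13.8 and 11.7 in the miR-451a samples. All 10 samples of the miRNA groups were above the highest control. The log2 fold change was 0.70 ± 0.06 for miR-144 (adjusted p = 8.2e-08, limma) and 0.65 ± 0.06 for miR-451a (adjusted p = 2.0e-07, limma). Its longest transcript shares no stretch of 50 bases with another gene.

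**Figure D4:**
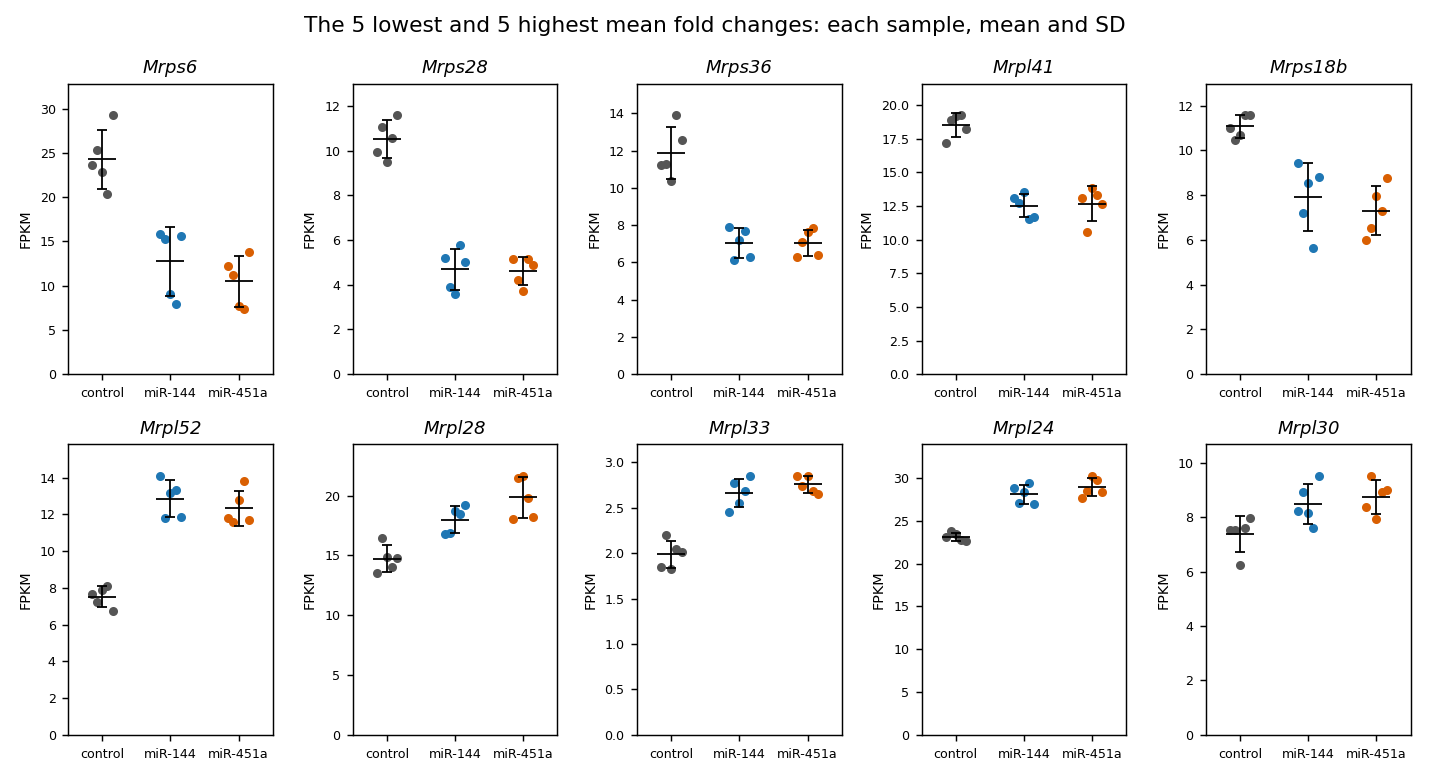
FPKM in each of the 5 samples per group for the 5 genes with the lowest (upper row) and the 5 with the highest (lower row) mean log2 fold change against control, with the mean and SD in black and each vertical axis starting at 0. Mrpl52 averaged 7.53 FPKM in control and 12.9 and 12.3 in the miRNA groups, and Mrps28 averaged 10.5, 4.70 and 4.63.

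The other rises were smaller. Mrpl28, a large-subunit protein with a bacterial counterpart, was at 14.7 ± 1.11 FPKM in control, 17.996 ± 1.11 in miR-144 and 19.8 ± 1.71 in miR-451a TAMs, a log2 difference from control of 0.27 ± 0.06 and 0.40 ± 0.06 (adjusted p = 1.2e-03 and 3.4e-05, limma). Mrpl33, also with a bacterial counterpart, rose from 1.99 ± 0.15 to 2.66 ± 0.16 and 2.76 ± 0.10 FPKM (adjusted p = 2.1e-05 and 5.8e-06, limma). Mrpl24 was one of the 3 members with the highest levels, and it rose from 23.1 ± 0.48 to 28.1 ± 1.102 and 28.9 ± 1.07 FPKM (adjusted p = 3.1e-06 and 6.6e-07, limma). It shares 38.0% of its transcript sequence with other genes, mostly Rrnad1 on the opposite strand. In these 3 genes no sample of a miRNA group overlapped with control. Mrpl30 averaged 7.38 ± 0.66 FPKM in control, 8.50 ± 0.74 in miR-144 and 8.75 ± 0.61 in miR-451a TAMs, and its groups overlapped (adjusted p = 0.024 and 7.9e-03, limma). With median centring the rise of Mrpl28 did not pass the test for miR-144 (adjusted p = 0.071, limma), nor did that of Mrpl30 in either comparison. Without control replicate 3, miR-144 replicate 2 or miR-144 replicate 5, Mrpl30 also missed the threshold for miR-144.

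Mrpl10, Mrpl11 and Mrpl12 form the stalk, the arm of the large subunit that recruits translation factors, and of these Mrpl12 alone was called on the FPKM as deposited. It is also known to bind the mitochondrial RNA polymerase. Mrpl12 was at 22.3, 22.3, 22.7, 24.1 and 24.0 FPKM in the control samples. It was at 19.9, 18.1, 19.7, 18.3 and 18.3 in the miR-144 samples and at 17.8, 19.4, 17.9, 18.5 and 21.9 in the miR-451a samples, all below the lowest control. The log2 fold change was -0.28 ± 0.05 for miR-144 (adjusted p = 2.2e-04, limma) and -0.26 ± 0.05 for miR-451a (adjusted p = 3.2e-04, limma). Mrpl10, which anchors Mrpl12, was at 16.4 ± 0.92, 16.5 ± 0.52 and 16.2 ± 0.29 FPKM (adjusted p = 0.95 and 0.68, limma), with log2 differences of 0.003 and -0.02 and an SE of 0.04. Mrpl11, at the base of the stalk, was at 3.92 ± 0.26, 3.87 ± 0.36 and 3.42 ± 0.59 FPKM (adjusted p = 0.89 and 0.11, limma). With median centring Mrpl10 was also below control, with a log2 fold change of -0.13 for miR-144 (adjusted p = 3.9e-03, limma) and -0.16 for miR-451a (adjusted p = 7.5e-04, limma), and Mrpl11 was below it for miR-451a at -0.31 (adjusted p = 6.7e-03, limma).

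Among the other landmark proteins, Mrps12, part of the decoding centre, averaged 13.97 ± 1.25 FPKM in control, 11.9 ± 1.08 in miR-144 and 13.2 ± 0.81 in miR-451a TAMs, and it was called for miR-144 (adjusted p = 9.1e-03, limma) and not for miR-451a (adjusted p = 0.37, limma). With TPM the call of Mrps12 for miR-144 was lost (adjusted p = 0.0525, limma). Mrpl32, whose maturation by a mitochondrial protease is a known step in ribosome assembly, was at 1.55 ± 0.21, 1.76 ± 0.38 and 1.91 ± 0.26 FPKM (adjusted p = 0.32 and 0.079, limma). Mrpl58, a peptidyl-tRNA hydrolase built into the large subunit, was at 1.76 ± 0.21, 1.88 ± 0.11 and 1.97 ± 0.30 FPKM (adjusted p = 0.41 and 0.19, limma). Mrps30, which despite its name is a large-subunit protein, was at 2.49 ± 0.22, 2.80 ± 0.13 and 2.87 ± 0.20 FPKM (adjusted p = 0.037 and 0.015, limma), and under median centring neither call held. Its call for miR-144 was also lost without control replicate 2, 3 or 4 or miR-144 replicate 1 or 5. Of the members with the highest levels, Mrps21 averaged 40.5 ± 6.87, 38.9 ± 11.5 and 29.7 ± 7.796 FPKM, and its groups overlapped (adjusted p = 0.71 and 0.075, limma). Without control replicate 4, miR-144 replicate 5 or miR-451a replicate 5 it passed the threshold for miR-451a, as Mrpl32 did without control or miR-144 replicate 2. Mrpl34 averaged 28.4 ± 1.86, 21.8 ± 3.50 and 23.7 ± 2.89 FPKM (adjusted p = 3.4e-03 and 0.032, limma), and its call for miR-451a was lost on leaving out any of control replicates 1 and 4 and miR-451a replicates 2, 3, 4 and 5. With TPM that call of Mrpl34 was also lost (adjusted p = 0.12, limma).

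When TAMs from miR-451a tumors were compared with those from miR-144 tumors, none of the 78 genes had an adjusted p under 0.05 (limma), as was so for all 11419 genes (0%). No member's groups were fully apart, against 0.552% of all genes with miR-451a above and 0.298% with it below. At an unadjusted p under 0.05 there were 2 members and 596 genes in all (5.22%). The members with the smallest p were Mrpl48 (log2 difference 0.15 ± 0.06), Mrps12 (0.15 ± 0.07) and Mrps14 (-0.11 ± 0.05), each with an adjusted p of 0.95 (limma). The differences of the 78 genes ran from -0.35 for Mrps21 to 0.16, with standard errors between 0.03 and 0.21, so that small differences between these groups were not detectable here.

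The other genes of mitochondrial translation moved in both directions, and their counts are to be read beside the 47.1% and 48.1% of all genes that were above control and the 20.1% and 20.3% that were below it. Of 5 further mitoribosomal proteins with other symbols, 2 were higher in both comparisons (Dap3 and Ptcd3), with 1 lower for miR-144 and 0 lower for miR-451a. With median centring 0 were higher, and 1 and 2 were lower. The call of Ptcd3 for miR-144 was also lost on leaving out any of control replicates 1 and 3 and miR-144 replicates 1, 2, 3 and 5. Of the 22 tested assembly factors, miR-144 TAMs had 9 above and 1 below control, and miR-451a TAMs had 9 above and 2 below, but with median centring the counts were 6 above and 4 below, and 3 above and 5 below. Among them Rbfa, a factor that acts on the small-subunit rRNA, rose from 19.9 ± 0.86 to 35.5 ± 1.14 and 36.6 ± 1.43 FPKM (adjusted p = 3.4e-11 and 1.8e-11, limma), with 41.9% of its sequence shared with other genes, and Ngrn rose from 6.54 ± 0.56 to 8.87 ± 0.60 and 8.45 ± 0.67 FPKM (adjusted p = 4.6e-05 and 2.3e-04, limma). Mpv17l2 fell from 12.9 ± 1.003 to 9.68 ± 0.62 and 8.87 ± 0.66 FPKM (adjusted p = 4.6e-05 and 2.8e-06, limma). Of 16 translation factors and mRNA-handling proteins, miR-144 TAMs had 6 above and 4 below control, and miR-451a TAMs had 8 above and 5 below, and with median centring 1 was above in each comparison, with 6 and 7 below. In each of the 6 scalings Rbfa, Ngrn and Mpv17l2 kept their direction and stayed past the threshold, as did Oxa1l and Gfm1. Oxa1l, which inserts new proteins into the inner membrane, rose from 9.60 ± 0.56 to 13.1 ± 0.52 and 13.9 ± 0.68 FPKM (adjusted p = 6.0e-07 and 6.3e-08, limma). The elongation factor Gfm1 fell from 8.47 ± 0.61 to 6.78 ± 0.30 and 6.89 ± 0.50 FPKM (adjusted p = 2.0e-04 and 3.5e-04, limma).

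Of the 13 tested mitochondrial aminoacyl-tRNA synthetases, which charge tRNAs with amino acids, 5 were above control and 0 below in miR-144 TAMs, with 5 above and 1 below in miR-451a TAMs, and with median centring 4 were above and 3 below in each. Tars2 rose from 2.36 ± 0.14 to 3.35 ± 0.26 and 3.56 ± 0.26 FPKM (adjusted p = 1.3e-05 and 2.1e-06, limma). Of 10 genes that transcribe or maintain mitochondrial DNA, 3 were higher and 1 lower in each comparison (with median centring 2 were higher in each, with 4 and 2 lower), and Polg, the catalytic subunit of the mitochondrial DNA polymerase, rose from 1.82 ± 0.19 to 5.51 ± 0.20 and 5.57 ± 0.33 FPKM (adjusted p = 9.4e-12 and 7.8e-12, limma). The mitochondrial RNA polymerase Polrmt averaged 4.66, 4.57 and 4.74 FPKM (adjusted p = 0.72 and 0.77, limma). Of 8 tested nuclear regulators, 4 were higher and 2 lower in each comparison, and with median centring 1 was higher and 3 lower. The coactivator Ppargc1b fell from 4.35 ± 0.32 to 1.31 ± 0.10 and 1.56 ± 0.16 FPKM (adjusted p = 2.4e-11 and 1.1e-10, limma), and Yy1 rose from 14.6 ± 0.23 to 18.5 ± 0.47 and 18.7 ± 0.41 FPKM (adjusted p = 3.0e-08 and 1.7e-08, limma).

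The mitoribosome translates the 13 mRNAs encoded by mitochondrial DNA, and 12 of these were lower in both comparisons with none higher, with a median log2 fold change of -0.40 and -0.42. The exception, mt-Atp6, averaged 1348, 1731 and 1724 FPKM and did not pass the test, and it shares 99.5% of its sequence with other genes, mostly Gm10925. Of the 12, mt-Nd3, mt-Nd4l, mt-Co3 and mt-Co2 share 98.0% to 100% with other genes, mt-Nd4 62.2% and mt-Co1 51.1%, so that their reads may be split, while mt-Cytb and mt-Rnr1 share none. For example, mt-Cytb fell from 1849 ± 100.4 to 1337 ± 103 and 1292 ± 129 FPKM (adjusted p = 2.3e-05 and 7.3e-06, limma). The small-subunit rRNA mt-Rnr1 rose from 131 ± 13.7 to 187 ± 9.72 and 200 ± 13.8 FPKM (adjusted p = 6.3e-06 and 9.8e-07, limma). The large-subunit rRNA, mt-Rnr2, went the other way and was lower in both comparisons. With quantile normalization, 7 of the 15 mitochondrially encoded RNAs were lower and 2 higher in each comparison, and the fall of mt-Cytb no longer passed the test. Of all genes, 29.3% were then lower and 32% higher for miR-144, and 30% lower and 32.9% higher for miR-451a.

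Other features of the samples moved with the groups, and their part in the results above was not tested. The summed macrophage markers ran from 2046 to 2167 FPKM in control and from 2191 to 2332 over both miRNA groups, and of the 7 rows for its 6 genes 5 were higher and 1 was lower in each comparison. Adgre1, whose product was used in the sort, averaged 137, 361 and 354 FPKM, and Csf1r averaged 401, 691 and 693, while Cd68, the 1 that fell, averaged 1444, 919 and 910 FPKM. The fibroblast list summed to 98.9 to 123 FPKM in control and 135 to 214 in the miRNA groups, and all 3 of its genes were higher in both. The neutrophil list summed to 64.9 to 79.2 FPKM in control and 44.1 to 53.2 in the miRNA groups, carried by Csf3r, the 1 gene of it that was tested, which averaged 70.4, 48.95 and 48.3 FPKM and was lower in both, while the group means of S100a8, S100a9 and Ly6g were at most 0.512. The eosinophil list summed to 1.94 to 2.56 FPKM in control and 0.159 to 0.519 in the miRNA groups, and the B cell list to 0.138 to 0.375 and 1.11 to 1.73, with no gene of either tested. The endothelial list summed to 2.72 to 3.38 and 3.41 to 5.37 FPKM, and its 1 tested gene, Kdr, was higher in both. Of the 4 tested genes for cycling cells, 2 were higher and 2 lower in each comparison. The hepatocyte genes Alb, Apoa1 and Ttr and the T cell genes Cd3g and Cd3e were listed at 0 in all samples. The Kupffer cell list summed to 3.30 to 3.75 FPKM in control and 15.7 to 49.9 in the miRNA groups, with Cd5l, the 1 gene of it that was tested, averaging 3.40, 29.8 and 27.1 FPKM and higher in both, and with Clec4f listed at 0 in all samples. Depth implied by the steps between low values was 15.5 to 30.3 M fragments per sample, with overlapping ranges between groups. In bulk samples, fewer cells of a type and less RNA per cell cannot be told apart.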

How the data were processed

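RNA of the sorted TAMs was extracted with Trizol and sequenced on an Illumina HiSeq instrument. The authors deposited 1 table of FPKM values per gene for the 15 samples, and the submitters' processing notes name FastQC 0.11.2, STAR and StringTie. The genome build and annotation were not given in the sources used here. Of the 55335 gene identifiers, 99.7% were in GENCODE M21 (GRCm38), which gave overlaps and shared sequence. Shared sequence was sought for the longest transcript of each gene only. The FPKM sums differed between groups, so scalings were compared. Whole reads could not be recovered: 38.3% to 55.9% of low values lay within 0.05 of a whole step, so the depths of 15.5 to 30.3 M fragments are estimates. No pair of samples of the same group agreed within the sampling noise expected at these estimated depths.

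Values were tested as log2(FPKM + 1) for those 11419 genes whose average over the samples reached 1 FPKM, with limma 3.58.1 (R 4.3.3, group means, trended variance) and Benjamini-Hochberg adjustment over all of them. The script was tested on simulated data. A fold change on this scale understates the change of low genes. Alternatives were a pseudocount of 0.1, no filter, a floor of 5 FPKM on the mean, centring on the median, quantile normalization, TPM, a total without genes over 1000 FPKM or mitochondrially encoded, a replicate block, no trend, only the 2 groups compared, and each sample left out. A further alternative, equal FPKM totals, was added after seeing the data. The 6 scalings compared are the FPKM as deposited, median centring, quantile normalization, TPM, the total without those genes and equal FPKM totals.

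The members, lists and promoter strings were chosen with earlier results of these data known. Named members were the 5 highest and the 5 lowest by mean fold change against control, the 3 highest levels, 11 landmark proteins, and the 3 smallest p between the miRNA groups. From other lists, up to 3 genes with the largest mean change called in both comparisons were eligible, with Tfam, Polrmt, Tufm and Lrpprc.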

Additional observations from a re-analysis of the deposited data

Results flagged for a closer look

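In 141 groups of 5 values (the named genes and the summed members in each group), 7 samples stood apart from the other 4 by Dixon's criterion (a gap of over 0.71 of the range), where chance alone gives about 7.05. Mrpl30 was low in control replicate 3 at 6.26 FPKM, with the nearest sample at 7.52. Mrpl10 was high in miR-144 replicate 3 at 17.4 FPKM (nearest 16.4) and low in miR-451a replicate 3 at 15.7 FPKM (nearest 16.3). Mrpl11 was low in miR-451a replicate 1 at 2.39 FPKM (nearest 3.50). Mrps21 was low in control replicate 4 at 28.6 FPKM (nearest 42.1). Mrpl34 was high in miR-451a replicate 1 at 28.9 FPKM (nearest 23.0). Tufm was high in miR-451a replicate 3 at 16.5 FPKM (nearest 15.5).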

How the results depend on the processing

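The direction of the called members depended on the scaling. With median centring, 47 members were called for miR-144 (3 higher, 44 lower, median log2 fold change -0.17) and 53 for miR-451a (4 higher, 49 lower, median -0.20). Quantile normalization gave 48 (4 higher, 44 lower, median -0.15) and 47 (4 higher, 43 lower, median -0.18), which is 61.5% and 60.3% of the members against 61.3% and 62.9% of all genes. With TPM the members had medians of 0.031 and 0.0198, and 15 were higher against 11 lower in the first comparison, 20 against 12 in the other. Equal FPKM totals, chosen after seeing the data, gave those counts too and medians of 0.028 and 0.018. A minimum mean of 5 FPKM, which left 50 members, gave 6 and 7 higher and 16 and 17 lower, and of all genes it then called 71.9% and 72.6%, with 46.9% and 47.6% higher and 25% lower in both. Without a filter the median of the members relative to that of all genes was -0.049 and -0.072, since many genes near 0 then entered the median of all genes.

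With each sample left out in turn, 26 to 31 members were called for miR-144 (8 to 12 higher, 17 to 21 lower, median -0.05 to -0.02) and 30 to 36 for miR-451a (10 to 13 higher, 19 to 23 lower, median -0.06 to -0.05), against 64.7% to 67.3% and 66% to 68.5% of all genes. Relative to all genes the medians were -0.18 to -0.15 and -0.20 to -0.18. Between the miRNA groups 0 members were called each time, with a median of -0.01 to 0.02 (-0.02 to 0.01 relative to all genes). A replicate block gave 28 and 34 members called (35.9% and 43.6%, against 67.5% and 68.8% of all genes), and among the named genes Mrps14 and Ptcd3 lost their call for miR-144. The replicate numbers share only a number in the labels: over 15 same-numbered pairs the deviations from the group means correlated at -0.15 to 0.26, with 8 pairs over 0.1, and 7 of 15 samples correlated best with their own number. The mean correlation was 0.076 for same-numbered pairs and -0.0189 for pairs with different numbers. Whether samples with the same number were handled together is not known, and pairing was not tested.

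Among single named genes, signs changed mostly for values that were not called, and the cause was not tested. The exceptions were Mrps30, Dap3 and Ptcd3, which were called on the FPKM as deposited and were not called where their sign turned, and Mrpl10, which passed the threshold for miR-144 with median centring. Median centring turned Mrpl32 (-0.029), Mrps30 (-0.009), Mrpl48 (-0.073), Mrpl58 (-0.069), Mrpl10 (-0.13) and Dap3 (-0.0042) for miR-144, and Mrpl58 (-0.042), Mrps18a (-0.084) and Polrmt (-0.12) for miR-451a, and Mrps36 (-0.0063) between the miRNA groups. Quantile normalization turned Mrpl32 (-0.064), Mrps30 (-0.041), Mrpl48 (-0.11), Mrpl58 (-0.096), Mrpl10 (-0.068), Dap3 (-0.034) and Ptcd3 (-0.021) for miR-144, and Mrps30 (-0.025), Mrpl58 (-0.072), Mrps18a (-0.0804), Polrmt (-0.13) and Ptcd3 (-0.0041) for miR-451a, and Mrps36 (-0.012) between the miRNA groups. TPM turned Mrps18a (0.026), Mrps18c (0.049), Mrpl11 (0.048) and Polrmt (0.038) for miR-144, and Mrpl10 (0.063), Mrps18c (0.022) and Mrps12 (0.0084) for miR-451a, and Mrps28 (0.0032) between the miRNA groups. Equal FPKM totals turned Mrps18a (0.024), Mrps18c (0.046), Mrpl11 (0.041) and Polrmt (0.033) for miR-144, and Mrpl10 (0.061), Mrps18c (0.021) and Mrps12 (0.0078) for miR-451a, and Mrps28 (0.0018) between the miRNA groups. The total without genes over 1000 FPKM turned Mrpl10 (-0.011) for miR-144. With 1 sample left out, values for miR-144 that took both signs ran from -0.021 to 0.022 for Mrpl10, from -0.046 to 0.018 for Mrpl11, from -0.066 to 0.0099 for Mrps18a, from -0.075 to 0.048 for Mrps18c, from -0.22 to 0.098 for Mrps21 and from -0.053 to 0.0084 for Polrmt. With 1 sample left out, values for miR-451a that took both signs ran from -0.042 to 0.0016 for Mrpl10, from -0.11 to 0.011 for Mrps18c and from -0.008 to 0.042 for Polrmt. With 1 sample left out, values between the miRNA groups that took both signs ran from -0.016 to 0.045 for Gfm1, from -0.0089 to 0.045 for Lrpprc, from -0.036 to 0.035 for Mrpl12, from -0.015 to 0.075 for Mrpl41, from -0.014 to 0.068 for Mrpl58, from -0.083 to 0.0074 for Mrps18c, from -0.081 to 0.058 for Mrps28, from -0.038 to 0.043 for Mrps36, from -0.0077 to 0.0403 for Polg, from -0.0015 to 0.045 for Ptcd3 and from -0.13 to 0.024 for mt-Nd3.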
